A study of Mus musculus with 12 samples.

Results

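The 10 genes described here encode secreted factors that act on blood vessels and the receptors that bind them. Vegfa, Vegfb and Pgf are ligands of the vascular endothelial growth factor (VEGF) family, and Flt1, Kdr and Flt4 are its receptor tyrosine kinases. Angpt1 and Angpt2 are the angiopoietins, which bind the receptor Tek, also called Tie2, and Apln encodes apelin, a peptide ligand of the receptor Aplnr. The genes were taken by symbol from a raw count table of 55401 genes, in which each had 1 row, and all 10 passed the filter that left 17699 genes for testing.

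As background, VEGF-A acts on endothelial cells mainly through Kdr, while Flt1 binds VEGF-A, VEGF-B and placental growth factor and, as a membrane or a soluble protein, takes up ligand that Kdr could otherwise bind. Angpt1 activates Tek and steadies vessels, whereas Angpt2 can act against it. In the heart, the balance of these ligands and receptors is known for setting capillary density as muscle grows under load.

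The 12 libraries came from mouse left ventricle, with 3 in each of 4 groups: mice with the Prkca T497A genotype after TAC, T497A mice after sham surgery, WT mice after TAC and WT mice after sham surgery. Prkca encodes protein kinase C alpha. TAC is transverse aortic constriction, a narrowing of the aorta that loads the left ventricle with pressure, set here with a 27-gauge needle at 10 weeks of age, and tissue was taken 1 week later, at 11 weeks. The labels used here do not give sex, strain background or whether the 3 libraries of a group are from 3 mice, and the p-values cover only the spread among these libraries, which may be technical.

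Libraries held 58932759 to 72594085 counts. Although the cell type label reads cardiomyocyte, markers of several ventricular cell types were read. In every group the 17 endothelial markers together had a mean of 1866 to 2043 CPM (counts scaled to library size, with the TMM factors of edgeR), and no marker of any list was at 0 in all libraries. Bulk tissue cannot tell fewer cells of a type from less RNA per cell. The TMM factor was 1.13 to 1.21 for WT TAC libraries and 0.910 to 0.988 for all others. The mutated gene itself, Prkca, had 46.2 ± 3.59 CPM in T497A TAC, 33.8 ± 2.40 CPM in T497A sham, 50.3 ± 0.960 CPM in WT TAC and 44.4 ± 2.68 CPM in WT sham libraries (SD, n = 3 each). Nppb, the natriuretic peptide gene known to rise under pressure load, had 375 ± 62.5 CPM in T497A TAC, 36.0 ± 8.66 CPM in T497A sham, 525 ± 66.4 CPM in WT TAC and 125 ± 35.8 CPM in WT sham libraries.

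The T497A sham libraries stood apart. Xist, a transcript of the inactive X chromosome of female cells, had 184 ± 28.3 CPM there, against 0.461 ± 0.196 CPM in T497A TAC, 0.514 ± 0.203 CPM in WT TAC and 0.650 ± 0.0907 CPM in WT sham libraries. The Y-linked gene Ddx3y was at 0.252 CPM in T497A sham libraries and at 80.1 to 105 CPM as a mean of each other group. Between the T497A sham and WT sham libraries, 104 autosomal genes were called with at least a 4-fold difference, 83 of them higher in T497A sham. Of the 104, 33 lay on chromosome 11, which also carries Prkca and Flt4, and made up 2.34% of the genes tested there. This is a larger share than that of the 104 among all 17699 genes tested. After TAC, 95 of the 104 had the opposite sign between T497A and WT. What sets these libraries apart cannot be told apart from genotype in the sham comparison or from surgery in T497A ventricles. Comparisons of T497A TAC libraries with WT sham libraries, which leave the T497A sham group out, are therefore given beside the matched ones.

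Expressed per length (TPM, the count per exon base scaled to the library), Vegfb had the highest level of the 10 genes and Angpt2 the lowest. Over the 12 libraries the mean was 402 TPM for Vegfb, 123 TPM for Vegfa, 59.5 TPM for Kdr, 42.9 TPM for Tek and 34.5 TPM for Flt1. The 5 lower genes were Angpt1 at 18.7 TPM, Apln at 16.5 TPM, Flt4 at 9.62 TPM, Pgf at 5.06 TPM and Angpt2 at 2.64 TPM. Among the receptors, Kdr was above Flt1 in 3 groups, with 61.2 ± 2.04 TPM for Kdr and 28.4 ± 3.63 TPM for Flt1 in T497A TAC libraries. In T497A sham libraries they were within their spread of each other, at 42.2 ± 3.63 TPM for Kdr and 44.6 ± 4.30 TPM for Flt1, but with the longest transcript in place of all exons they were apart, at 53.2 ± 4.69 TPM for Kdr and 72.1 ± 6.70 TPM for Flt1. Angpt1 and Apln changed places between groups, with 14.0 ± 2.93 TPM for Angpt1 and 24 ± 3.30 TPM for Apln in T497A TAC libraries, against 22.4 ± 3.72 TPM for Angpt1 and 14.0 ± 0.772 TPM for Apln in WT sham libraries. The order of Tek and Flt1 also depended on the length used, and with the longest transcript the mean over all libraries was 35.9 TPM for Tek and 55.9 TPM for Flt1.

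Genes were tested in edgeR over all 17699 genes and called at an adjusted p under 0.05. TAC against sham called 6 of the 10 genes in T497A ventricles, where 24.4% of all genes were called, with 2 higher (background 12.9%) and 4 lower (background 11.4%). In WT ventricles, the same surgery called 5 genes against a background of 49.9%, with 1 higher (background 25.9%) and 4 lower (background 24%), so that the share in WT was that of all genes. T497A against WT after TAC called 5 genes against 35.7%, with 4 higher (background 17.8%) and 1 lower (background 17.9%). T497A against WT after sham called 3 genes against 5.79%, with 1 higher (background 2.99%) and 2 lower (background 2.80%). For the interaction, which is the TAC response in T497A minus that in WT, 3 genes were called against 29.5%, all of them higher (background 15.3%) and 0 lower (background 14.2%).

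**Figure D1:**
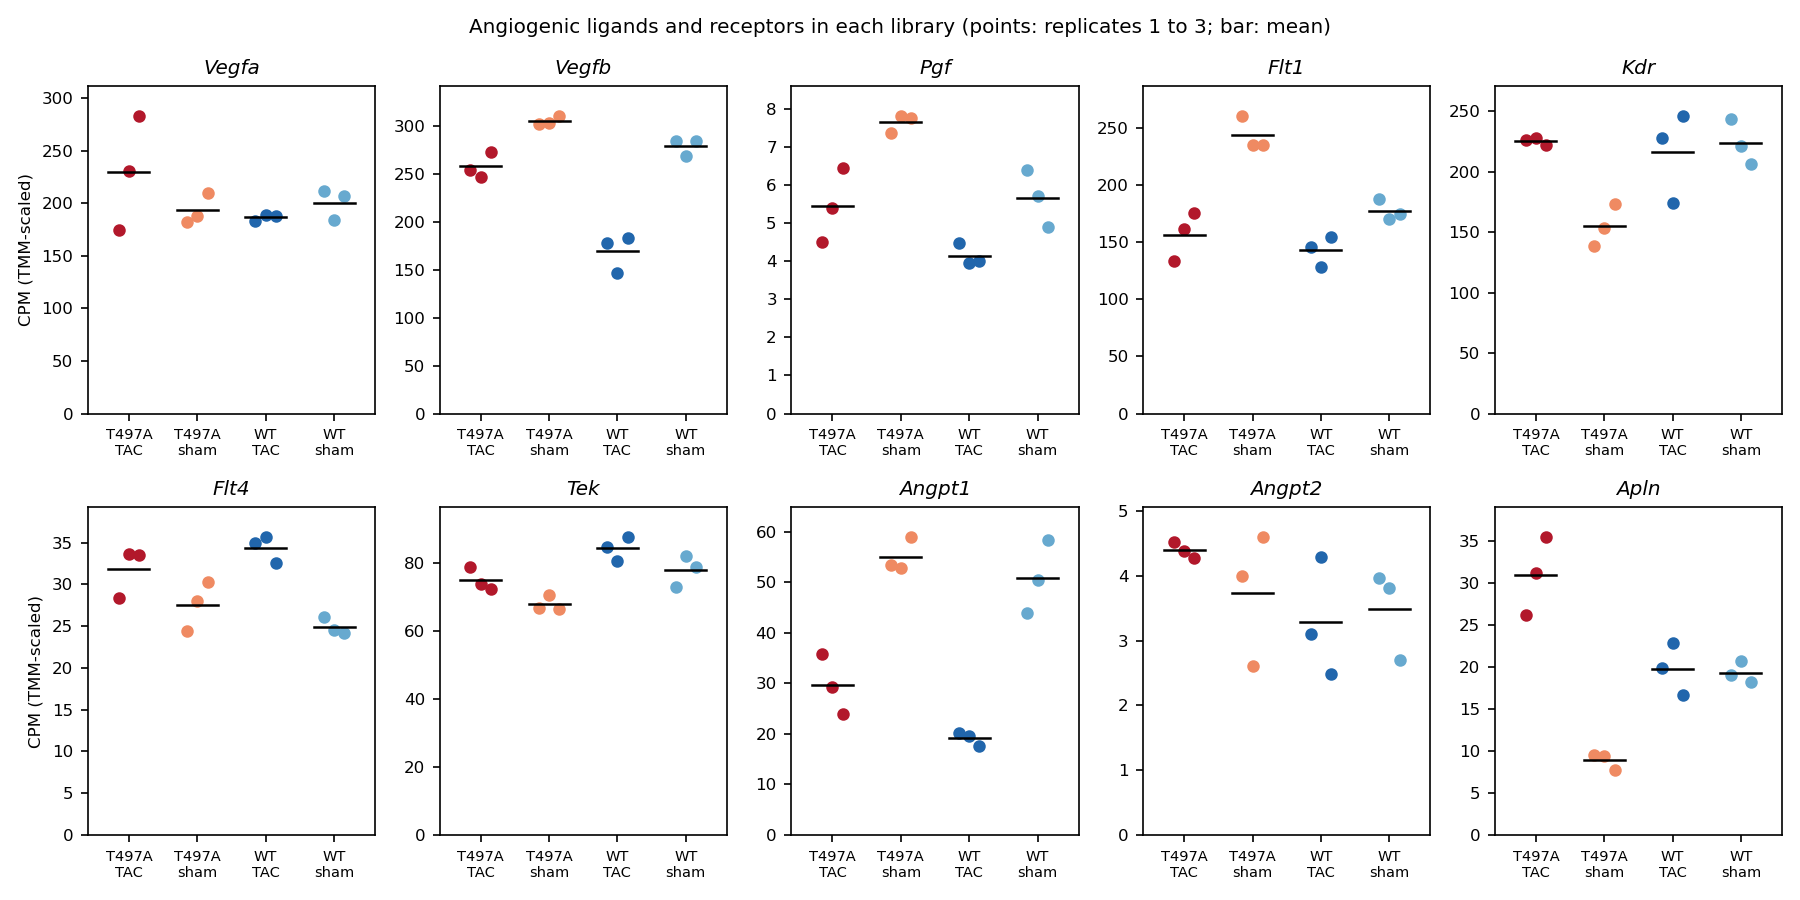
CPM of each of the 10 genes in each of the 12 libraries, with 3 points and a bar for the mean in every group and each vertical axis starting at 0. Apln was lowest in T497A sham libraries and highest in T497A TAC libraries, and Angpt1 was lower in both TAC groups than in either sham group.

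Vegfb, a ligand of Flt1, was lower after TAC in both genotypes, and by more in WT. It had 255, 247 and 273 CPM in T497A TAC libraries, against 302, 303 and 311 CPM in T497A sham libraries. In WT ventricles it had 178, 147 and 184 CPM after TAC, against 285, 269 and 285 CPM after sham. The TAC libraries lay below the sham libraries in both genotypes, with no overlap. Vegfb fell by 0.72 ± 0.08 (log2, SE) with TAC in WT (edgeR adjusted p = 2.41e-06) and by 0.24 ± 0.07 in T497A (adjusted p = 0.0285). The T497A call was lost without T497A sham library 1, 2 or 3 or without T497A TAC library 1 or 2, at log2 values of -0.25 to -0.21 and adjusted p of 0.0553 to 0.122. Against WT sham, Vegfb in T497A TAC libraries was at -0.12 ± 0.07 (adjusted p = 0.363), with overlap. The response itself differed between genotypes by 0.48 ± 0.11 (adjusted p = 0.00378), and after TAC the T497A libraries were higher by 0.60 ± 0.07 (adjusted p = 3.28e-05). With library totals in place of TMM factors the interaction was 0.18 (adjusted p = 0.106), while the median of all genes moved by -0.30. WT TAC libraries, where Vegfb was lowest, also had the lowest sum over 10 cardiomyocyte markers, with 81203 CPM in T497A TAC, 98811 CPM in T497A sham, 51675 CPM in WT TAC and 96524 CPM in WT sham libraries, and the part of this in the result was not tested.

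Vegfa, the main ligand of Kdr, was called in none of the 7 comparisons made with all libraries. It had 175, 230 and 283 CPM in T497A TAC libraries, against 182, 188 and 210 CPM in T497A sham libraries. The T497A TAC libraries spanned a wider range than any other group and reached both below and above the shams. WT libraries had 183, 189 and 188 CPM after TAC, against 212, 184 and 207 CPM after sham. The log2 fold change with TAC was 0.25 ± 0.13 in T497A (edgeR adjusted p = 0.209) and -0.11 ± 0.13 in WT (adjusted p = 0.545). T497A TAC library 1 decided the call: without it, Vegfa was called with TAC in T497A at 0.41 (adjusted p = 0.00676). Also without that library, it was called in T497A against WT after TAC at 0.46 (adjusted p = 0.00193) and for the interaction at 0.52 (adjusted p = 0.00798).

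Pgf, placental growth factor, which binds Flt1 and not Kdr, was a low transcript in every group. It had 4.49, 5.4 and 6.44 CPM in T497A TAC libraries, against 7.36, 7.81 and 7.76 CPM in T497A sham libraries. In WT it had 4.46, 3.96 and 4.0 CPM after TAC, against 6.40, 5.71 and 4.89 CPM after sham. Its level was lower after TAC in both genotypes without overlap, by 0.49 ± 0.14 on the log2 scale in T497A (edgeR adjusted p = 0.0229) and by 0.45 ± 0.14 in WT (adjusted p = 0.0177). The T497A call was lost without T497A sham library 2 or 3 or T497A TAC library 1 or 2, at adjusted p of 0.0600 to 0.0955. Against WT sham, Pgf in T497A TAC libraries was at -0.06 ± 0.14 (adjusted p = 0.859), with overlap. The WT call was lost without WT sham library 1 (log2 value -0.36, adjusted p = 0.0881) and with library totals in place of TMM factors (-0.12, adjusted p = 0.50). T497A TAC libraries were higher than WT TAC libraries by 0.40 ± 0.14 (adjusted p = 0.0457), a call that 15 of 23 alternatives lost, among them the fit without the T497A sham group (adjusted p = 0.0688). Without WT sham library 2 or any single T497A sham, WT TAC or T497A TAC library other than T497A TAC library 1, it ran from 0.26 to 0.45 with an adjusted p of 0.0516 to 0.210.

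**Figure D2:**
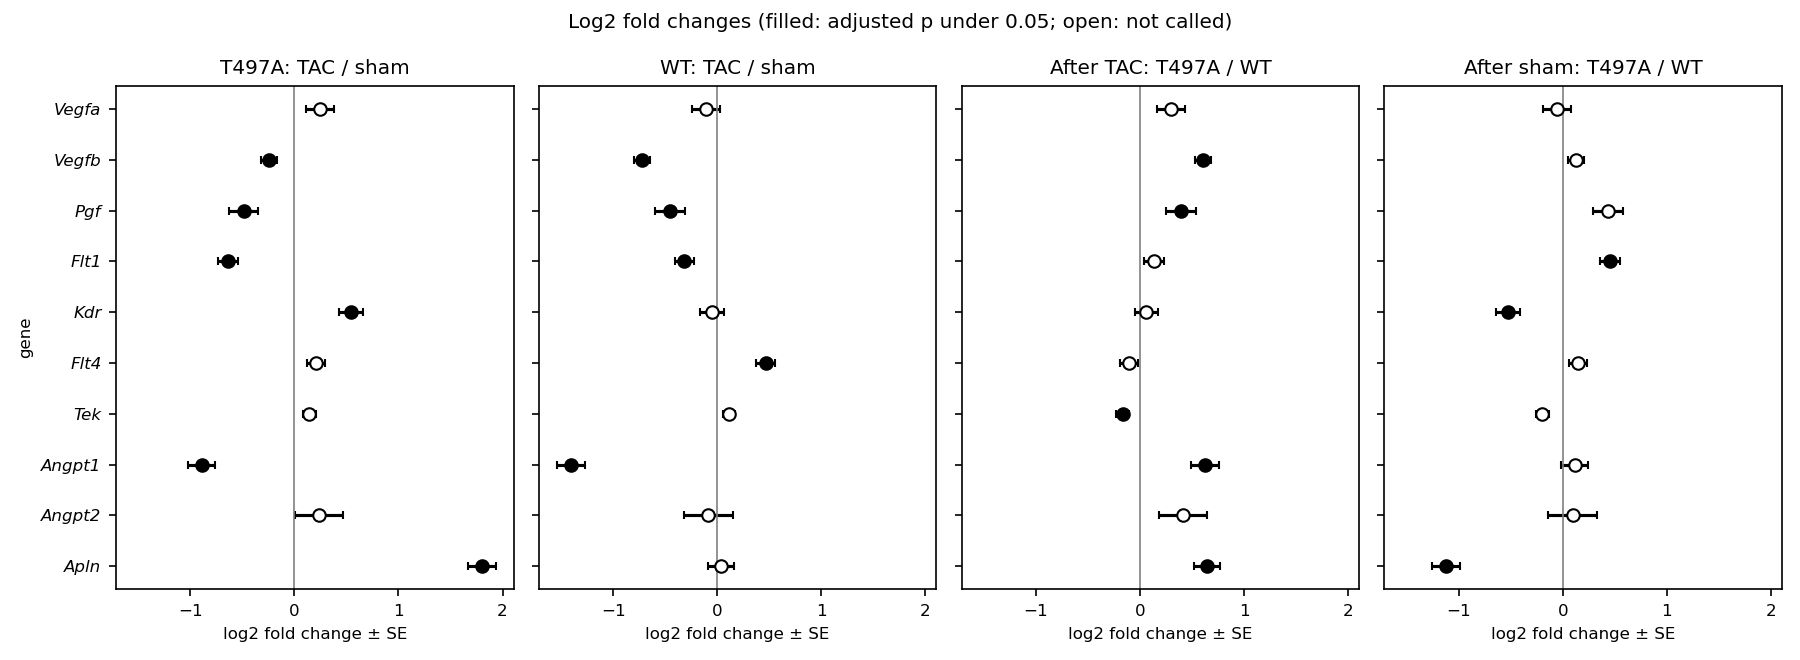
Log2 fold change with its standard error for the 10 genes in TAC against sham in T497A, TAC against sham in WT, T497A against WT after TAC and T497A against WT after sham, with filled points for genes called by edgeR. Kdr and Flt1 lie on opposite sides of 0 with TAC in T497A and again, the other way round, between the sham groups.

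Flt1, the receptor that binds all of the 3 ligands above, was highest in T497A sham libraries. It had 133, 161 and 176 CPM in T497A TAC libraries, against 261, 235 and 236 CPM in T497A sham libraries. In WT it had 146, 128 and 155 CPM after TAC, against 188, 170 and 175 CPM after sham. TAC libraries lay below sham libraries in both genotypes. Flt1 fell by 0.64 ± 0.09 with TAC in T497A (edgeR adjusted p = 0.000303), a call that every alternative kept, all of them with T497A sham libraries. Against WT sham, Flt1 in T497A TAC libraries was at -0.18 ± 0.09 (adjusted p = 0.255), with overlap. In WT it fell by 0.31 ± 0.09 (adjusted p = 0.0125), but with library totals in place of TMM factors the value was 0.015 (adjusted p = 0.896), while the median of all genes moved by 0.33. That WT call was also lost without WT sham library 1 (-0.27, adjusted p = 0.0539) or WT TAC library 2 (-0.24, adjusted p = 0.0588). The counts are per gene, so the membrane and soluble forms of Flt1 are summed.

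Kdr, the main signalling receptor for VEGF-A, differed from the pattern of Flt1. It had 227, 228 and 222 CPM in T497A TAC libraries, against 138, 153 and 174 CPM in T497A sham libraries. WT libraries had 228, 174 and 246 CPM after TAC, against 244, 221 and 206 CPM after sham. The T497A sham libraries were below all libraries of the T497A TAC and WT sham groups, and the WT groups overlapped. Kdr rose by 0.54 ± 0.12 with TAC in T497A (edgeR adjusted p = 0.00455) under every alternative, and its WT value was -0.05 ± 0.11 (adjusted p = 0.746), or 0.28 and called with library totals in place of TMM factors (adjusted p = 0.0235). The difference between these responses was 0.59 ± 0.16 (adjusted p = 0.0158). It was not called with library totals in place of TMM factors (0.30, adjusted p = 0.0977) or without the filter on low counts (adjusted p = 0.0539). T497A TAC and WT sham libraries were close in Kdr, with a log2 difference of 0.01 ± 0.11 (adjusted p = 0.969).

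Between the sham groups Kdr and Flt1 moved in opposite directions. Kdr was lower in T497A sham than in WT sham libraries by 0.53 ± 0.12 on the log2 scale (edgeR adjusted p = 0.0175), and Flt1 was higher by 0.46 ± 0.09 (adjusted p = 0.0119). The Kdr call was lost without WT sham library 1 or 2 or T497A sham library 1 or 2 (-0.54 to -0.45, adjusted p 0.0502 to 0.0773) and without the filter on low counts (adjusted p = 0.0551). The Flt1 call was lost without WT sham library 2 (0.43, adjusted p = 0.0595) or 3 (0.44, adjusted p = 0.0534). After TAC the log2 difference between T497A and WT libraries was 0.06 ± 0.11 for Kdr (adjusted p = 0.717) and 0.13 ± 0.09 for Flt1 (adjusted p = 0.296). Without T497A TAC library 1, Flt1 was called there at 0.24 (adjusted p = 0.0470).

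The promoters of Flt1, Kdr and Apln are shown because these genes were called between T497A sham and both T497A TAC and WT sham libraries. Vegfb, Pgf and Tek also separated the T497A sham libraries from both groups without overlap, but were not called in both comparisons. Each is the 250 bases before a RefSeq gene start on GRCm38.p6, 5′ to 3′ on the minus strand that carries the gene, at chr5:147726012-147726261 for Flt1, chr5:75978456-75978705 for Kdr and chrX:48034854-48035103 for Apln. Capitals mark the letters ACGTG or GCGTG, the core of the site that hypoxia-inducible factors are known to bind, searched on both strands, so that CACGT and CACGC are marked too.
Flt1 promoter: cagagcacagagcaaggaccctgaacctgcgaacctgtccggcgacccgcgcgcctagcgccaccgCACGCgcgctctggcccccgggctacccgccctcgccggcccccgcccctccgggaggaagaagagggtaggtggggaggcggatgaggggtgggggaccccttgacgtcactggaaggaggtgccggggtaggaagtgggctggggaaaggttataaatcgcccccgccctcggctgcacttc
Kdr promoter: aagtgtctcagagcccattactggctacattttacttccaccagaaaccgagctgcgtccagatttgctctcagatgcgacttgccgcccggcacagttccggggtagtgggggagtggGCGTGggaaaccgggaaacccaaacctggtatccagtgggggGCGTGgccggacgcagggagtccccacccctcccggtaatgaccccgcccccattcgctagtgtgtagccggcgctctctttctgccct
Apln promoter: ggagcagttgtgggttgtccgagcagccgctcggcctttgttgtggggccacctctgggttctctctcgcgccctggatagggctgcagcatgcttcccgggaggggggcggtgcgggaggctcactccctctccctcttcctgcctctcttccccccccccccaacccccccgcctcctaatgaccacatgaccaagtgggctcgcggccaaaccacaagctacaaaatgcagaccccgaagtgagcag
Flt1 held 1 match, Kdr held 2 and Apln held 0. Of 32851 mouse promoter windows of this length, 16.6% held ACGTG, 28.2% held GCGTG and 38.6% held either. Entries for 8 of the 10 genes were found in the RefSeq table, and Angpt1 and Angpt2 were not among them. A match of letters describes the sequence and says nothing about binding in these ventricles.

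Flt4, the receptor for VEGF-C and VEGF-D, was called with TAC in WT only among the 2 genotypes, and the difference in response was not. It had 28.4, 33.7 and 33.6 CPM in T497A TAC libraries, against 24.4, 28.1 and 30.3 CPM in T497A sham libraries. WT libraries had 35.0, 35.6 and 32.6 CPM after TAC, against 26.1, 24.5 and 24.2 CPM after sham. The WT groups were separate and the T497A groups overlapped. Flt4 rose by 0.46 ± 0.09 with TAC in WT (edgeR adjusted p = 0.000444), and its value in T497A was 0.21 ± 0.09 (adjusted p = 0.0977), or 0.29 without T497A TAC library 1 (adjusted p = 0.0337). The interaction was -0.26 ± 0.12 (adjusted p = 0.137), but -0.33 without T497A sham library 1 (adjusted p = 0.0444) and -0.56 with library totals in place of TMM factors (adjusted p = 0.00335). Flt4 was also higher in T497A TAC than in WT sham libraries, by 0.36 ± 0.09 (adjusted p = 0.0207), a call lost without WT sham library 2 or 3 or T497A TAC library 2 or 3 (0.32 to 0.34, adjusted p 0.0728 to 0.0998). Flt4 is also a marker of lymphatic endothelium. Of 6 other lymphatic markers, 4 fell and 0 rose with TAC in T497A, and 2 rose and 2 fell in WT. The lymphatic markers summed to 131 CPM in T497A TAC, 170 CPM in T497A sham, 106 CPM in WT TAC and 145 CPM in WT sham libraries.

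Angpt1, the activating ligand of Tek, had the largest fall of the 10 genes in both genotypes. It had 35.7, 29.2 and 24 CPM in T497A TAC libraries, against 53.5, 52.8 and 58.9 CPM in T497A sham libraries. WT libraries had 20.2, 19.7 and 17.7 CPM after TAC, against 43.8, 50.5 and 58.3 CPM after sham. No TAC library reached the level of a sham library, and the WT TAC libraries were below all T497A TAC libraries. Angpt1 fell by 0.89 ± 0.13 with TAC in T497A (edgeR adjusted p = 0.000445) and by 1.41 ± 0.13 in WT (adjusted p = 2.87e-06). T497A TAC libraries were higher than WT TAC libraries by 0.63 ± 0.13 (adjusted p = 0.00274). All 3 calls held under every alternative, and T497A TAC was below WT sham by 0.78 ± 0.13 (adjusted p = 0.00404), or by 0.78 with the T497A sham group out of the fit (adjusted p = 0.00899). The difference in response was 0.51 ± 0.19 (adjusted p = 0.0560), and it was called at 0.61 without WT sham library 1 (adjusted p = 0.0283), at 0.65 without T497A TAC library 3 (adjusted p = 0.00855) and by DESeq2 (adjusted p = 0.0261). An antisense gene, Gm17473, shares 737 of the 5205 exon bases of Angpt1, and with 506 counts over all libraries it was small beside it. The strand setting of the counting is not known here, and reads of the pair cannot be told apart in the shared bases.

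Angpt2, the context-dependent ligand of Tek, was the lowest of the 10 genes and was called in none of the 7 comparisons. It had 4.52, 4.38 and 4.28 CPM in T497A TAC libraries, against 4.0, 2.60 and 4.59 CPM in T497A sham libraries. WT libraries had 3.10, 4.29 and 2.48 CPM after TAC, against 3.96, 3.82 and 2.7 CPM after sham. The groups overlapped except for T497A TAC against WT sham, where the log2 difference was 0.33 ± 0.23 (edgeR adjusted p = 0.409). The SE of 0.23 with TAC in either genotype leaves changes of this size undetectable here. Without WT TAC library 2, Angpt2 was called as higher in T497A than in WT after TAC, at 0.66 (adjusted p = 0.0433). Within a library, the log2 ratio of Angpt2 to Angpt1 was -2.97, -2.73 and -2.48 in T497A TAC, against -3.73, -4.33 and -3.67 in T497A sham. In WT it was -2.7, -2.19 and -2.82 after TAC, against -3.46, -3.72 and -4.41 after sham. The ratio was higher after TAC in both genotypes without overlap, by 1.18 and 1.30 on the log2 scale, each at p = 0.1, which is the smallest value an exact two-sided permutation test of 3 against 3 can give.

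Tek, the receptor of both angiopoietins, was among the steadiest of the 10 genes. It had 78.9, 74.0 and 72.4 CPM in T497A TAC libraries, against 66.7, 70.7 and 66.6 CPM in T497A sham libraries. WT libraries had 84.7, 80.7 and 87.6 CPM after TAC, against 72.9, 82.1 and 78.9 CPM after sham. T497A libraries lay below WT libraries after TAC and after sham alike. The TAC response was 0.14 ± 0.06 in T497A (edgeR adjusted p = 0.101) and 0.11 ± 0.06 in WT (adjusted p = 0.135), but both were called with library totals in place of TMM factors, at 0.18 (adjusted p = 0.0467) and 0.44 (adjusted p = 2.16e-05). Tek was lower in T497A than in WT after TAC by 0.17 ± 0.06 (adjusted p = 0.0429), a call that 11 of 23 alternatives lost. It was lost without WT sham library 2 or 3, T497A sham library 2 or 3, WT TAC library 1 or 3, or T497A TAC library 2 or 3, at values of -0.16 to -0.14 and adjusted p of 0.0504 to 0.177. After sham the difference was -0.20 ± 0.06 (adjusted p = 0.0729), called at -0.20 without WT TAC library 2 (adjusted p = 0.0399) and by DESeq2 (adjusted p = 0.0416).

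Apln had the largest log2 differences of the 10 genes with TAC in T497A, between the sham groups and for the interaction. It had 26.1, 31.2 and 35.4 CPM in T497A TAC libraries, against 9.50, 9.35 and 7.76 CPM in T497A sham libraries. WT libraries had 19.9, 22.9 and 16.6 CPM after TAC, against 19, 20.7 and 18.2 CPM after sham. All T497A TAC libraries were above, and all T497A sham libraries below, every WT library, while the WT groups overlapped. Apln was 3.48-fold higher after TAC in T497A (log2 1.80 ± 0.13, edgeR adjusted p = 1.02e-06), and its log2 value in WT was 0.04 ± 0.13 (adjusted p = 0.841), or 0.37 with library totals in place of TMM factors (adjusted p = 0.0340). The difference between the responses was 1.76 ± 0.18 (adjusted p = 1.82e-05) and lay between 1.46 and 1.88 in the alternatives, all of which called it.

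Both ends of the T497A pair differed from WT. After sham, Apln was lower in T497A than in WT by 1.12 ± 0.13 on the log2 scale (edgeR adjusted p = 0.000267), and after TAC it was higher by 0.64 ± 0.13 (adjusted p = 0.00132). T497A TAC libraries were also higher than WT sham libraries, which differ in both genotype and surgery, by 0.68 ± 0.13 (adjusted p = 0.00554), and by 0.68 with the T497A sham libraries out of the fit (adjusted p = 0.00890). Apln lies on the X chromosome, where T497A sham libraries differed from the others in Xist. Of 547 X-linked genes tested, 17 were called higher and 13 lower in T497A sham than in WT sham libraries. This was 5.48% of the X-linked genes, beside 5.79% of all genes. The median log2 difference of the 547 genes was 0.01, and 10 of the 547 had a lower value than Apln. These values describe the X-linked genes as a set, and the cause of the Apln difference was not tested.

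The receptor of apelin, Aplnr, rose with TAC in both genotypes. It averaged 62.2 ± 6.66 CPM in T497A TAC libraries and 12.9 ± 6.46 CPM in T497A sham libraries (SD, n = 3 each), a rise of 2.27 ± 0.37 on the log2 scale (edgeR adjusted p = 0.00257). In WT it averaged 89.3 ± 24.4 CPM after TAC and 38.1 ± 8.04 CPM after sham, a rise of 1.23 ± 0.35 (adjusted p = 0.0171). Like Apln, Aplnr was lower in T497A sham than in WT sham libraries, by 1.56 ± 0.36 (adjusted p = 0.0420), a call that 13 of 22 alternatives lost. After TAC, Aplnr was at -0.52 ± 0.35 in T497A against WT (adjusted p = 0.281), where Apln was higher. The difference in response was 1.04 ± 0.50 (adjusted p = 0.157). A second apelin receptor ligand gene, Apela, was under the filter on low counts.

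**Figure D3:**
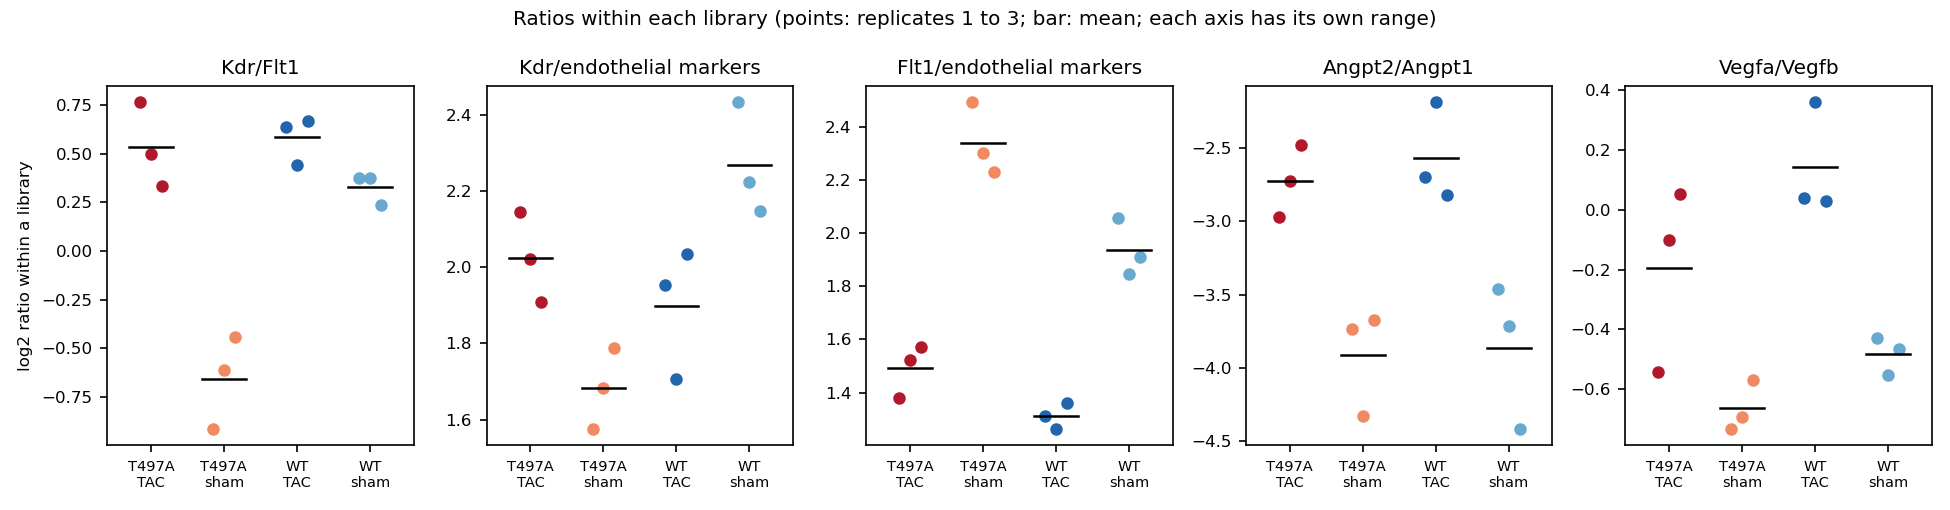
Log2 ratios within each library of Kdr to Flt1, Kdr and Flt1 to the mean of 17 endothelial markers, Angpt2 to Angpt1 and Vegfa to Vegfb, with 3 points and a bar for the mean in every group. T497A sham libraries had the lowest Kdr to Flt1 ratios, at -0.92 to -0.44, while every other library was above 0.

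Ratios within a library do not depend on the scaling of the libraries. The log2 ratio of Kdr to Flt1 counts was 0.77, 0.50 and 0.34 in T497A TAC, against -0.92, -0.62 and -0.44 in T497A sham. In WT it was 0.64, 0.44 and 0.67 after TAC, against 0.38, 0.38 and 0.24 after sham. TAC and sham libraries did not overlap in either genotype, with differences of 1.19 in T497A and 0.26 in WT (exact permutation p = 0.1 each, the smallest possible). The difference between these responses was 0.94 (exact permutation p = 0.065 over 400 reassignments, 0.163 adjusted over 10 ratios). Vegfa to Vegfb was higher after TAC by 0.47 in T497A and by 0.62 in WT, again without overlap. Pgf to Vegfa was lower after TAC by 0.73 in T497A without overlap, and by 0.34 in WT with overlap.

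The 4 receptors were also set against the endothelium. Of 17 endothelial markers, 7 rose and 0 fell with TAC in T497A, and 12 rose and 1 fell in WT, with a median log2 change of 0.18 in T497A and 0.41 in WT. The sum of the 17 was 2043 CPM in T497A TAC, 1920 CPM in T497A sham, 1866 CPM in WT TAC and 1883 CPM in WT sham libraries, so it did not rise in WT. Among these, Cdh5, which encodes VE-cadherin, averaged 296 ± 17.2 CPM in T497A TAC, 180 ± 15.8 CPM in T497A sham, 306 ± 32.2 CPM in WT TAC and 228 ± 6.51 CPM in WT sham libraries. Pecam1, which encodes CD31, averaged 220 ± 14.2 CPM in T497A TAC, 195 ± 18.2 CPM in T497A sham, 250 ± 11.3 CPM in WT TAC and 189 ± 4.84 CPM in WT sham libraries. Cldn5, a tight junction protein, averaged 24.1 ± 0.667 CPM in T497A TAC, 13.4 ± 1.68 CPM in T497A sham, 20.1 ± 0.290 CPM in WT TAC and 15 ± 1.95 CPM in WT sham libraries. Emcn, which encodes endomucin, averaged 37.8 ± 0.796 CPM in T497A TAC, 36.0 ± 4.4 CPM in T497A sham, 44.6 ± 2.73 CPM in WT TAC and 33.7 ± 3.31 CPM in WT sham libraries. Relative to the mean log2 level of the markers, Flt1 was lower after TAC by 0.85 in T497A and 0.63 in WT, without overlap in either. Kdr was higher relative to the markers by 0.34 in T497A and lower by 0.37 in WT, also without overlap. The difference between the Kdr responses was 0.71 (exact permutation p = 0.025, 0.0833 adjusted over 10 ratios). Flt4 stayed near the markers, with differences of 0.01 in T497A and 0.16 in WT and overlapping groups. Tek was lower than the markers by 0.19 after TAC in WT without overlap, and by 0.06 in T497A with overlap.

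Ratios between receptors gave the same contrast for Kdr. Tek to Kdr was lower after TAC by 0.40 in T497A without overlap and higher by 0.18 in WT with overlap, a difference between responses of -0.58 (exact permutation p = 0.005, 0.05 adjusted over 10 ratios). For Flt4 to Kdr it was lower by 0.34 in T497A and higher by 0.53 in WT, both without overlap, a difference of -0.86 (exact permutation p = 0.02, 0.0833 adjusted). None of these passed an adjusted p under 0.05.

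Set across both genotype and surgery, T497A TAC against WT sham called 3 of the 10 genes, where 10.0% of all genes were called, beside 6 and 24.4% against T497A sham. The 3 genes were Flt4 and Apln, which were higher (background 6.12%), and Angpt1, which was lower (background 3.90%). Not called were Vegfa at 0.19, Vegfb at -0.12, Pgf at -0.06, Flt1 at -0.18, Kdr at 0.01, Tek at -0.05 and Angpt2 at 0.33 (log2). The opposite pair, WT TAC against T497A sham, called 8 genes against 50.2%, with 4 higher (background 25.6%) and 4 lower (background 24.6%). There Vegfb was at -0.85, Pgf at -0.88, Flt1 at -0.77 and Angpt1 at -1.52 on the log2 scale, and Kdr at 0.48, Flt4 at 0.32, Tek at 0.31 and Apln at 1.16. These comparisons share their libraries with the matched ones, so their values stand beside them and are no separate evidence. Without the T497A sham group in the fit, TAC in WT still called 5 of the 10 genes and T497A against WT after TAC called 4.

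The median log2 value of the 10 genes was 0.18 with TAC in T497A and -0.10 in WT, beside 0.00 and 0.03 for all genes. T497A against WT it was 0.35 after TAC and 0.10 after sham, beside -0.02 and 0.00 for all genes, and 0.34 for the interaction, beside -0.01.

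The genes with the most similar pattern to each of the 10 were named by the Pearson correlation of log2 CPM over the 12 libraries, which share their 4 groups and their scaling, so that these values only describe likeness. Vegfb was followed most closely by Atp5h (r = 0.998), Chchd10 (0.997) and Ndufs7 (0.995), which encode an ATP synthase subunit, a protein of the mitochondrial intermembrane space and a complex I subunit. Apln was most like Ptpre (0.984), Jup (0.958) and Smarce1 (0.943), a tyrosine phosphatase, the junction protein plakoglobin and a chromatin remodelling subunit. For Angpt1 these were Agtpbp1 (0.979), Zbtb20 (0.977) and Limch1 (0.976), and for Flt1 they were Pik3r1 (0.976), Rhobtb1 (0.971) and Xdh (0.969). Kdr was most like Hba-a2 (0.946), a haemoglobin gene with a near-identical copy whose counts are therefore uncertain, Kazn (0.936) and F11r (0.926). Pgf was most like Rhobtb1 (0.958), Snrpb (0.957) and Rheb (0.947), Flt4 like Tmed8 (0.965), Cdr2 (0.952) and Trim3 (0.946), and Tek like Zfp40 (0.948), Ebf3 (0.943) and Hpgd (0.937). For Vegfa these were Mat2a (0.943), Jmjd6 (0.912) and Frmd5 (0.894). The lowest values belonged to Angpt2, with Ggt7 (0.841), Fbxo30 (0.809) and Ubqln1 (0.804).

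**Figure D4:**
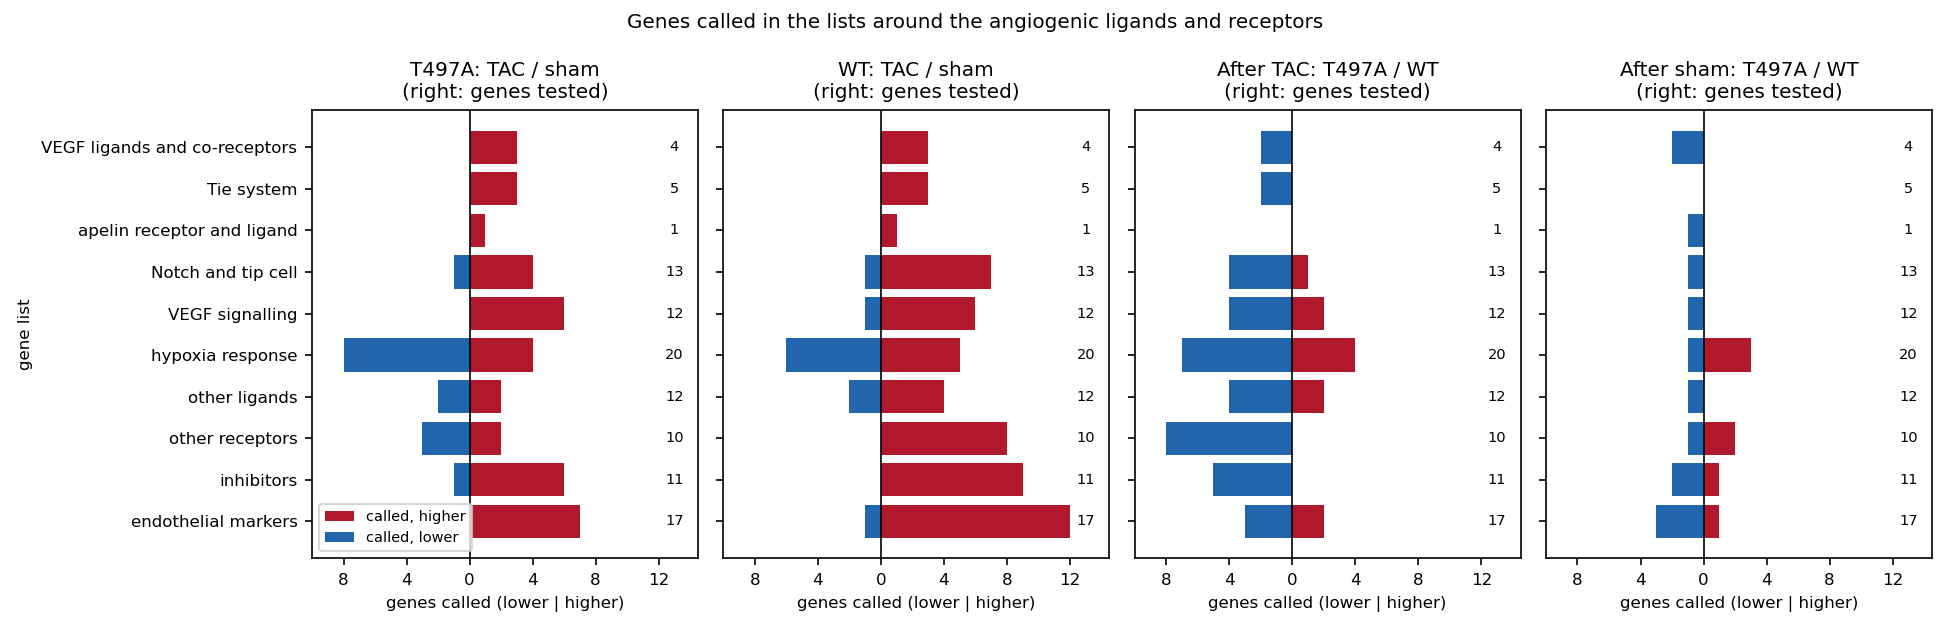
Number of genes called higher (right, red) or lower (left, blue) in each of 9 pathway lists and the endothelial marker list, in the 4 comparisons of the study's design, with the number tested at the right of each panel. Of 10 other vascular receptors, 8 were higher with TAC in WT (background 25.9%) and 8 were lower in T497A than in WT after TAC (background 17.9%).

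Of the remaining VEGF ligands and co-receptors, Vegfc, Vegfd, Nrp1 and Nrp2, 3 of 4 rose and 0 fell with TAC in each genotype, with a median log2 change of 0.52 in T497A and 0.65 in WT. Nrp2, a co-receptor for VEGF-C, averaged 112 ± 10.2 CPM in T497A TAC and 45.1 ± 4.42 CPM in T497A sham libraries, and 115 ± 1.11 CPM in WT TAC and 70.2 ± 5.94 CPM in WT sham libraries. Nrp1, a co-receptor for VEGF-A, rose by 0.55 ± 0.07 in T497A (edgeR adjusted p = 6.46e-05) and was at -0.09 ± 0.07 in WT (adjusted p = 0.302). Like Kdr, both neuropilins were lower in T497A sham than in WT sham libraries, Nrp1 by 0.50 ± 0.07 (adjusted p = 0.000714) and Nrp2 by 0.64 ± 0.08 (adjusted p = 0.000483). Both had a positive interaction, of 0.64 ± 0.10 for Nrp1 (adjusted p = 0.000261) and 0.59 ± 0.12 for Nrp2 (adjusted p = 0.00195). These interactions, and the rises in T497A, all use the T497A sham libraries. In T497A TAC against WT sham, 1 of the 4 genes was higher (background 6.12%) and 0 lower (background 3.90%). Vegfd, a ligand of Flt4, rose by 1.28 ± 0.18 in WT (adjusted p = 4.75e-05) and was lower in T497A than in WT after TAC by 0.88 ± 0.18 (adjusted p = 0.00167).

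Of 5 further genes of the Tie system, 3 rose and 0 fell with TAC in each genotype, against the same TAC backgrounds. Tie1, the partner receptor of Tek, averaged 139 ± 10.1 CPM in T497A TAC and 90.7 ± 6.99 CPM in T497A sham libraries, and 134 ± 13.6 CPM in WT TAC and 109 ± 2.63 CPM in WT sham libraries. Its rise was 0.61 ± 0.08 in T497A and 0.30 ± 0.08 in WT. Svep1, a matrix protein known to bind Tie1, rose by 0.88 ± 0.10 in T497A and by 2.38 ± 0.10 in WT, a difference of -1.50 ± 0.14 (edgeR adjusted p = 5.60e-06). With TAC in WT, 8 of 9 fibroblast markers rose and 1 fell, and in T497A 3 rose and 1 fell, against the same backgrounds. The 9 markers summed to 3120 CPM in T497A TAC, 3245 CPM in T497A sham, 9406 CPM in WT TAC and 2744 CPM in WT sham libraries. Their part in the Svep1 result was not tested.

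In the Notch and tip cell list, 4 of 13 genes rose and 1 fell with TAC in T497A, and 7 rose and 1 fell in WT. Unc5b, a netrin receptor of tip cells, rose by 1.00 ± 0.10 in T497A and 1.43 ± 0.10 in WT, and Cxcr4, a chemokine receptor, rose by 0.87 ± 0.18 in T497A and 1.16 ± 0.18 in WT. Nrarp, a feedback inhibitor of Notch, rose by 1.06 ± 0.16 in T497A, and Hey2, a target of Notch, fell by 1.14 ± 0.16 in WT. For the interaction, 0 of the 13 genes were called higher (background 15.3%) and 2 lower (background 14.2%). Among 12 genes downstream of VEGF receptors, 6 rose and 0 fell with TAC in T497A, and 6 rose and 1 fell in WT, against the same TAC backgrounds. Egr3, an immediate early gene, averaged 9.51 ± 3.41 CPM in T497A TAC and 1.03 ± 0.122 CPM in T497A sham libraries. Rcan1, a calcineurin target, averaged 184 ± 34.6 CPM in WT TAC and 67.2 ± 5.05 CPM in WT sham libraries. For the interaction, 3 of these 12 genes were called higher and 2 lower, against the same interaction backgrounds. Sele, which encodes E-selectin, rose by 2.38 ± 0.20 in T497A and by 0.74 ± 0.18 in WT, and the difference of 1.64 ± 0.27 was called (edgeR adjusted p = 0.000498).

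Genes of the hypoxia response, which as background includes regulators of Vegfa, were called in both directions. With TAC, 4 of 20 rose and 8 fell in T497A, and 5 rose and 6 fell in WT, with a median log2 change of -0.23 in T497A and 0.04 in WT. Egln1, the prolyl hydroxylase that marks hypoxia-inducible factors for degradation, averaged 387 ± 1.88 CPM in T497A TAC and 631 ± 18.3 CPM in T497A sham libraries, and 311 ± 40.2 CPM in WT TAC and 557 ± 19.1 CPM in WT sham libraries. In T497A, Bnip3, a mitophagy receptor, fell by 0.85 ± 0.10 and Hif3a by 1.63 ± 0.28, while Hif1a rose by 0.74 ± 0.12 (edgeR adjusted p = 0.00118). In WT, Vldlr, a lipoprotein receptor, fell by 0.95 ± 0.09 (adjusted p = 8.81e-07), and Epas1, which encodes HIF-2 alpha, fell by 0.72 ± 0.09 (adjusted p = 1.59e-05).

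Other angiogenic ligands were mixed. Of 12, 2 rose and 2 fell with TAC in T497A, and 4 rose and 2 fell in WT, against the same TAC backgrounds. For the interaction, 2 were called higher and 3 lower, against the same interaction backgrounds. Fgf1, a fibroblast growth factor, averaged 227 ± 3.97 CPM in T497A TAC and 279 ± 40.8 CPM in T497A sham libraries, and 149 ± 1.23 CPM in WT TAC and 299 ± 16.9 CPM in WT sham libraries. Igf1, insulin-like growth factor, rose by 0.98 ± 0.21 in T497A and by 2.27 ± 0.21 in WT. Pdgfd, a platelet-derived growth factor, fell by 0.36 ± 0.08 in T497A. In WT, Gas6 rose by 0.50 ± 0.05 and Ctf1, which encodes cardiotrophin, fell by 1.31 ± 0.14.

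Of 10 other vascular receptors, 2 rose and 3 fell with TAC in T497A, and 8 rose and 0 fell in WT, against the same TAC backgrounds. After TAC, 0 were higher (background 17.8%) and 8 lower (background 17.9%) in T497A than in WT. Their median log2 value was -0.40 beside -0.02 for all genes. Fgfr1, a fibroblast growth factor receptor, averaged 44.5 ± 1.96 CPM in T497A TAC and 77.1 ± 6.16 CPM in WT TAC libraries, and Axl, the receptor of Gas6, averaged 126 ± 4.21 CPM in T497A TAC and 196 ± 19.1 CPM in WT TAC libraries. Flt1, Kdr and Flt4 were not called in that comparison, but with library totals in place of TMM factors Flt4 was called lower, at -0.36 (adjusted p = 0.00407). Fibroblast markers were lower there too, with 8 of 9 lower and 1 higher (median log2 value -0.57), as were 8 of 8 macrophage markers (median -0.83). Cardiomyocyte markers went the other way, with 9 of 10 higher and 0 lower (median 0.79). Of 17 endothelial markers 2 were higher and 3 lower, and of 8 mural markers 2 were higher and 2 lower. The macrophage markers summed to 389 CPM in T497A TAC, 335 CPM in T497A sham, 689 CPM in WT TAC and 304 CPM in WT sham libraries, and the part of these cell types in the receptor and inhibitor values was not tested.

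Of 11 inhibitors of angiogenesis, 6 rose and 1 fell with TAC in T497A, and 9 rose and 0 fell in WT. Vash1, which encodes the endothelial inhibitor vasohibin, rose by 1.41 ± 0.11 in T497A and by 1.12 ± 0.10 in WT. Col18a1, the source of endostatin, averaged 35.1 ± 7.36 CPM in T497A TAC and 83.9 ± 3.47 CPM in WT TAC libraries, and Thbs1, which encodes thrombospondin, averaged 51.3 ± 3.42 CPM in T497A TAC and 178 ± 80.5 CPM in WT TAC libraries. Both were lower in T497A than in WT after TAC, Col18a1 by 1.26 ± 0.15 (edgeR adjusted p = 7.31e-05) and Thbs1 by 1.79 ± 0.30 (adjusted p = 0.00164). Serpinf1, which encodes pigment epithelium-derived factor, was lower there by 1.79 ± 0.27 (adjusted p = 0.000873). The fibroblast and macrophage markers given above were lower in the same comparison.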

How the data were processed

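RNA was measured in 12 left ventricle libraries, 3 per group, grouped by the library names in the labels. Per the labels' protocols, mRNA libraries were sequenced from a single end with 50 cycles. Per the submitters' processing notes, the tools were Trim Galore 0.6.4, STAR 2.7.3a, featureCounts of Subread 1.6.3 and limma 3.50.3, and both mm10 and GRCh38 are named. The authors deposited raw read counts per gene, whole numbers with no normalization. How strand and reads with several matches were handled, and with which annotation release, is not given in the sources used here. GENCODE M21 (GRCm38) gave gene names and lengths, where 54349 of 55401 IDs matched with their version, 55141 with or without it and 260 not at all.

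Counts were filtered with filterByExpr, scaled with TMM and tested with edgeR 4.0.16 (quasi-likelihood F test) in R 4.3.3, with robust estimation and 1 mean per group over all 12 libraries. P-values were adjusted by Benjamini-Hochberg over the 17699 genes of each comparison, and genes under 0.05 were called. Log2 CPM used a prior count of 2. TPM used all exon bases of a gene and no TMM factors, and served only to order genes. Ratios were differences of log2 CPM within a library, tested by exact two-sided permutation, for the interaction by permuting genotype within each surgery. The test was checked on simulated counts.

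The 10 genes, the pathway and marker lists, the tests and most alternatives were chosen with earlier results of these data known. Named were the 10 genes, from each list described up to 4 called genes by smallest p in a comparison (with the same genes' values in the others for some), 5 endothelial markers, 4 library checks and the 3 genes most like each of the 10. A gene given for 1 genotype was picked by its p there, which is no test of a difference between genotypes. The alternatives were DESeq2 1.42.0 size factors, library totals, the DESeq2 test, limma-voom (limma 3.58.1), no filter, a stricter filter (1 CPM in 6 libraries), a replicate block, robust estimation off, only the groups compared, no T497A sham group, mitochondrial, haemoglobin and rRNA genes removed, and each library left out. The chi-square per degree of freedom between libraries of a group was 11.4 to 153, so counting error was smaller than the spread between libraries. None was therefore the same library counted again, but this cannot tell whether libraries of a group came from the same mouse.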

Additional observations from a re-analysis of the deposited data

Results flagged for a closer look

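The response to TAC was compared between the genotypes by a test of the difference itself, and 3 genes and 3 ratios are given here, all of which share the T497A sham libraries, which stood apart in Xist and Ddx3y. The TAC response in T497A minus that in WT was 1.76 for Apln, 0.59 for Kdr and 0.48 for Vegfb on the log2 scale, each called by edgeR over all genes. These are 3 of the 10 genes where 29.5% of all genes were called, so their number is that of the background. Apln and Kdr were also called between the sham groups, and the T497A TAC libraries were at 0.68 for Apln, 0.01 for Kdr and -0.12 for Vegfb relative to WT sham. Within libraries, the difference in response was -0.58 for Tek to Kdr, -0.86 for Flt4 to Kdr and 0.71 for Kdr to the endothelial markers, at exact permutation p of 0.005, 0.02 and 0.025 before and 0.05, 0.0833 and 0.0833 after adjustment over 10 ratios, so that no ratio passed an adjusted p under 0.05. Kdr is part of all 3 ratios, so they are not separate observations.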

How the results depend on the processing

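Under the alternatives, 1456 of 1560 values of the 10 genes kept their direction and their side of the threshold, 53 lost a call, 22 gained one and 29 changed sign, 1 of them among called values (Flt1 with TAC in WT). Of 33 calls, 22 held under every alternative. Scaling by library totals alone shifted the median over all genes by 0.33 with TAC in WT, -0.25 in T497A against WT after TAC, -0.30 for the interaction and 0.28 for WT TAC against T497A sham, and 81.7% of the called genes were higher with TAC in WT, beside 51.8% with TMM. In T497A against WT after TAC this share was 17.5%, beside 49.9%, for the interaction 17.1%, beside 51.7%, and in T497A against WT after sham 66.1%, beside 51.7%. In T497A TAC against WT sham it was 82.7%, beside 61.1%, and in WT TAC against T497A sham 77.7%, beside 51.0%. With totals, log2 values changed sign for Vegfa (0.23), Flt1 (0.015), Kdr (0.28) and Angpt2 (0.26) with TAC in WT, for Flt1 (-0.11) and Kdr (-0.18) in T497A against WT after TAC, for Tek (-0.27) in the interaction, for Pgf (0.025) and Tek (0.028) in T497A TAC against WT sham, and for Vegfa (0.23) and Angpt2 (0.11) in WT TAC against T497A sham. Less the median of all genes, the values without TMM in WT were -0.13 for Vegfa, -0.34 for Flt1, -0.08 for Kdr and -0.10 for Angpt2.

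No pairing of libraries by replicate number was seen, judged by the log2 CPM of each library less the mean of its group. With 3 libraries per group, this measure can show only a strong shared deviation. These deviations correlated at -0.11 to 0.07 over 18 same-numbered pairs of different groups, and at -0.12 to 0.11 over 36 other pairs. By this measure, 0 libraries correlated best with their own number in every other group. The replicate block changed 2 of 70 values and called 3 of the 10 genes, not 5, in T497A against WT after TAC, as did no filter (3) and only the groups compared (3). DESeq2 called 5 of the 10 genes, not 3, and 1697 genes, not 1024, in T497A against WT after sham. In T497A TAC against WT sham, DESeq2 called 2725 genes and the fit on only the groups compared 2992, not 1773. With the longest transcript, levels were 418 TPM for Vegfb, 75.2 for Kdr, 35.9 for Tek, 55.9 for Flt1, 13.7 for Apln and 5.85 for Pgf.

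With each library left out in turn, genes called ran from 2840 to 5152 with TAC in T497A, from 505 to 1607 in T497A against WT after sham and from 623 to 2812 in T497A TAC against WT sham, lowest without T497A TAC library 2, WT sham library 2 and T497A TAC library 2, and highest without WT TAC library 2 in each. Calls among the 10 genes ran from 3 to 5 with TAC in WT, 3 to 7 in T497A against WT after TAC, 1 to 4 in T497A against WT after sham and 3 to 5 for the interaction. Log2 values that changed sign ran over these ranges. With TAC in WT they were Kdr -0.16 to 0.083, Angpt2 -0.32 to 0.081 and Apln -0.081 to 0.15. For T497A against WT after TAC they were Kdr -0.071 to 0.17, Angpt2 to Angpt1 -0.29 to 0.029, Kdr to Flt1 -0.17 to 0.048 and Flt4 to endothelial markers -0.14 to 0.015. For T497A against WT after sham they were Angpt2 -0.081 to 0.30 and Angpt2 to Angpt1 -0.32 to 0.16. For the interaction they were Pgf -0.17 to 0.085, Tek -0.0058 to 0.078, Angpt2 to Angpt1 -0.32 to 0.16 and Vegfa to Vegfb -0.28 to 0.016, while Kdr to Flt1 moved over 0.81 to 1.04 with no change of sign. For T497A TAC against WT sham they were Pgf -0.19 to 0.065 and Kdr -0.043 to 0.079. For WT TAC against T497A sham they were Vegfa -0.094 to 0.0094. With TAC in T497A they were Flt4 to endothelial markers -0.055 to 0.045 and Tek to endothelial markers -0.15 to 0.010. The cause of these changes was not tested. Counting error is small at these depths except for Pgf and Angpt2, whose libraries held 160 to 513 counts. Apln was near that range in T497A sham libraries, at 582, 614 and 466 counts.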
